A study of Mus musculus with 6 samples.

Results

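A set of 9 genes of fast-spiking and somatostatin interneurons was followed in cultured mouse neurons that lack Tlr7, an endosomal sensor of single-stranded RNA, and in wild-type (WT) neurons. They are Lhx6, Sox6, Satb1, Sst, Pvalb, Syt2, Kcnc1, Kcnc2 and Erbb4, taken by name from a table of 25814 genes, and all 9 were found there. The set was chosen by measured levels, since Kcnc2, Syt2 and Satb1 differ among the Tlr7-/- libraries, so differences inside the knockout group describe that choice and are given with no test. The 3 Tlr7-/- and 3 WT libraries came from primary neurons of mixed cortical and hippocampal origin on a C57BL/6 background, harvested at day 18 in vitro. Both genotypes grew in Neurobasal and DMEM with B27. Nothing in the labels says whether replicates were separate cultures or animals, and each p-value therefore reflects library-to-library spread that may be technical.

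Fast-spiking and somatostatin interneurons are the main inhibitory cell classes that arise from the medial ganglionic eminence of the embryonic forebrain. Lhx6 and its downstream factors Sox6 and Satb1 steer their migration and maturation. Somatostatin cells release the peptide encoded by Sst onto dendrites, while parvalbumin cells fire at high rates with the help of fast potassium channels (Kcnc1, Kcnc2), a calcium buffer (Pvalb) and a fast release sensor (Syt2), and receive neuregulin signals through Erbb4. Several of these genes also act in other cells, as Sox6 does in oligodendrocyte precursors. In RNA from whole cultures, fewer cells of a type and less RNA per cell cannot be told apart.

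The promoters of Sst and of the genes behind the choice are shown because Sst was low, and the other 3 high, in Tlr7-/- replicates 2 and 3. In Tlr7-/- replicate 1 all of them lay below WT. Any part of these promoters in the levels was not tested. The Sst promoter holds the cyclic AMP response element through which cyclic AMP raises transcription of this gene. The 30 bases around it (chr16:23890874-23890903, minus strand, GRCm38.p6, RefSeq) read as follows, with the element TGACGTCA in capitals.
Sst: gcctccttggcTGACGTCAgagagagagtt
The element begins 48 bases before the RefSeq start. GENCODE M21, like the deposited gene table, begins Sst 114 bases further upstream, so by that annotation the element lies in the first exon. Of 32851 RefSeq windows of 250 bases before a start, 1.55% hold TGACGTCA on either strand, and among the windows of the 9 genes only that of Sst does. The windows of 250 bases before the starts of Kcnc2 (chr10:112270871-112271120, plus strand), Syt2 (chr1:134646362-134646611, plus strand) and Satb1 (chr17:51833291-51833540, minus strand) follow, with GC boxes (GGGCGG or its reverse complement) and CCAAT boxes (CCAAT or its reverse complement) in capitals.
Kcnc2: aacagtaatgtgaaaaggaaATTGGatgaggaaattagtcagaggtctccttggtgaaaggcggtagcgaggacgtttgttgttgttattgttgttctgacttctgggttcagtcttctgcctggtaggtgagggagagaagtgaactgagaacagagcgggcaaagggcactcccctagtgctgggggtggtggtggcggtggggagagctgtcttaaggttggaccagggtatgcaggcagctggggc
Syt2: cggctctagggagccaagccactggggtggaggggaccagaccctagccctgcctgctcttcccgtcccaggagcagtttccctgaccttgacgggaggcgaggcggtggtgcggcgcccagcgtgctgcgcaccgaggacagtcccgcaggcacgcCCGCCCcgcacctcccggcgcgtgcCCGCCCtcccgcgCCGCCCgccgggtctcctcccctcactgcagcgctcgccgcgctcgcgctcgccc
Satb1: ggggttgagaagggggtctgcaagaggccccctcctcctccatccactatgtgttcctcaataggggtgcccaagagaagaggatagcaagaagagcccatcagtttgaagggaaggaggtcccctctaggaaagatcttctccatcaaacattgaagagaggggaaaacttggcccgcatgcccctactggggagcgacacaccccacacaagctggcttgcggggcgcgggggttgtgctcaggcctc
Syt2 has 3 GC boxes and a GC content of 76%, Kcnc2 has 1 CCAAT box and a GC content of 52.8%, and the Satb1 window has neither motif and a GC content of 58%. Of all windows 32.7% hold a GC box and 33.8% a CCAAT box, and their median GC content is 52.4%. The Syt2 window overlaps an exon of Gm26783 and the Satb1 window an exon of Gm6934 in GENCODE M21.

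Of the 6 libraries, Tlr7-/- replicates 2 and 3 were set off from all others. They carry a different style of library name in the labels from replicate 1 and all WT libraries, and they scored 40.7 and 38.5 on the first principal component, against -17.2 for Tlr7-/- replicate 1 and -25.4 to -14.9 for WT. Gene totals ranged from 23272450 to 25696625 counts. Tlr7 itself had 3, 5 and 5 counts in Tlr7-/- and 4, 8 and 4 counts in WT replicates 1 to 3, too few to check the labels. Mitochondrial genes took 2.98% of counts in Tlr7-/- replicate 1, 4.40% and 4.19% in replicates 2 and 3, and 2.60% to 3.14% in WT, and the part of this share in any value was not tested. No WT library has the second naming style, so a fit with naming style as a term rests on Tlr7-/- replicate 1 alone, and for replicates 2 and 3 style and genotype cannot be told apart. Levels are given below as CPM, the count of a gene scaled by library size with TMM factors, and each fold change is Tlr7-/- over WT on the log2 scale.

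**Figure D1:**
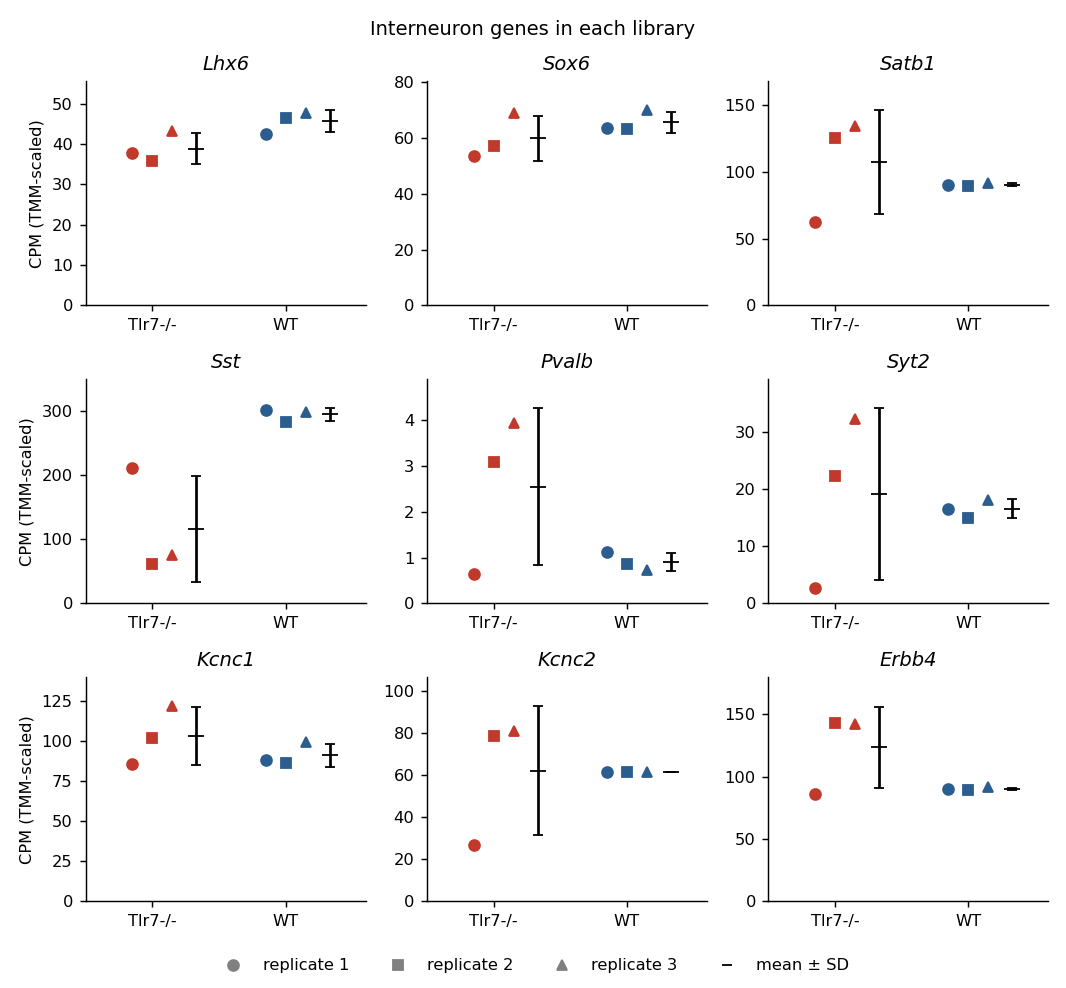
Level of each of the 9 genes in CPM (vertical axes, each starting at 0) in the 3 Tlr7-/- and the 3 WT libraries; symbol shapes mark replicates, and horizontal ticks with bars give the mean ± SD. Tlr7-/- replicate 1 sits far from replicates 2 and 3 for Syt2 (2.73 against 22.3 and 32.4 CPM), Kcnc2, Satb1, Pvalb, Erbb4 and Sst, while the libraries of Lhx6 and Sox6 lie close together.

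Lhx6 and Sox6, the lineage factors, had the smallest spread of the 9 genes over the Tlr7-/- libraries. Lhx6, a homeodomain factor that fixes medial ganglionic eminence identity (ENSMUSG00000026890, chromosome 2, 36081953 to 36105408, minus strand, GRCm38), had 37.7, 35.7 and 43.3 CPM in Tlr7-/- replicates 1 to 3 and 42.6, 46.6 and 47.8 CPM in WT replicates 1 to 3. The groups overlapped, since Tlr7-/- replicate 3 lay above WT replicate 1. The log2 fold change was -0.23 ± 0.10 (SE; edgeR adjusted p = 0.184). Sox6, a partner that acts after Lhx6 (chromosome 7, 115470872 to 116038796, minus strand), had 53.7, 57.0 and 69.0 CPM in Tlr7-/- and 63.7, 63.1 and 69.9 CPM in WT libraries. Here too the groups overlapped, and the log2 fold change was -0.13 ± 0.11 (SE; edgeR adjusted p = 0.449). Oligodendrocyte lineage markers, beside Sox6, summed to 651 to 905 TPM (a length-scaled level with the same total in each library) in Tlr7-/- and 1265 to 1319 TPM in WT libraries, with 13 of 14 listed genes tested, none of the 14 at 0 throughout and all 13 fold changes negative. Their part in the Sox6 value was not tested.

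Satb1, a chromatin organiser that acts after Lhx6 and is needed for somatostatin cell maturation (ENSMUSG00000023927, chromosome 17, 51736187 to 51833290, minus strand), did not follow the other factors. It had 62.3, 125 and 134 CPM in Tlr7-/- replicates 1 to 3 and 89.7, 89.4 and 91.5 CPM in WT replicates. Tlr7-/- replicate 1 thus lay below, and replicates 2 and 3 above, every WT library. The mean was 107 ± 38.9 CPM in Tlr7-/- and 90.2 ± 1.16 CPM in WT neurons (SD, n = 3 each), and the log2 fold change was 0.25 ± 0.26 (SE; edgeR adjusted p = 0.541).

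Sst and Pvalb, which define the main classes of these interneurons, stood on opposite sides of WT in Tlr7-/- replicates 2 and 3. Sst (ENSMUSG00000004366, chromosome 16, 23889573 to 23890958, minus strand) had 212, 62.2 and 75.2 CPM in Tlr7-/- replicates 1 to 3 and 303, 284 and 299 CPM in WT replicates. It was the only one of the 9 genes whose groups did not overlap, a property of 32.7% of all genes tested. Its mean was 117 ± 83.3 CPM in Tlr7-/- and 295 ± 9.96 CPM in WT neurons (SD, n = 3 each), for a difference of -1.34 ± 0.44 on the log2 scale (SE; edgeR adjusted p = 0.132). In parts of the knockout group the fitted values, given with no test, were -0.47 in replicate 1 and -2.10 in replicates 2 and 3, or 0.720 and 0.233 times the WT level. The authors' deposited table gives Sst a log2 fold change of -1.37 with a false discovery rate of 0.0190.

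Pvalb, which encodes the calcium buffer parvalbumin (ENSMUSG00000005716, chromosome 15, 78191114 to 78206400, minus strand), was scarce in all libraries. It had 16, 73 and 96 counts in Tlr7-/- replicates 1 to 3 and 29, 20 and 18 counts in WT replicates, or 0.634, 3.08 and 3.93 CPM in Tlr7-/- against 1.13, 0.858 and 0.733 CPM in WT. Replicates 2 and 3 were high and replicate 1 lay just under the lowest WT library, a gap of few counts. The log2 fold change was 1.48 ± 0.61 (SE; edgeR adjusted p = 0.172). It split into -0.52 for replicate 1 and 1.94 for replicates 2 and 3. The authors' deposited table gives 1.36 with a false discovery rate of 0.145. Per unit of length, Sst exceeded Pvalb 484-fold in Tlr7-/- replicate 1, 28.3-fold in replicates 2 and 3, and 469-fold in WT libraries by mean TPM, so the balance between these messages in replicate 1 was close to that in WT.

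Syt2 and Kcnc2 lay further below WT in Tlr7-/- replicate 1 than any other of the 9 genes. Syt2, the fast calcium sensor for transmitter release at parvalbumin cell terminals (ENSMUSG00000026452, chromosome 1, 134646677 to 134762593, plus strand), had 2.73, 22.3 and 32.4 CPM in Tlr7-/- replicates 1 to 3 and 16.6, 14.9 and 18.2 CPM in WT replicates. Behind these levels stood 69, 528 and 791 counts in Tlr7-/- and 424, 348 and 448 counts in WT libraries. Replicate 1 was 0.165 times and replicates 2 and 3 were 1.65 times the WT level, and over all 3 the log2 fold change was 0.20 ± 0.69 (SE; edgeR adjusted p = 0.859). Syt2 overlaps Ppp1r12b on the opposite strand, and whether the counting used strand is not given in the sources used here. Ppp1r12b had 207, 192 and 228 CPM in Tlr7-/- and 192, 193 and 201 CPM in WT libraries. Its part in the Syt2 counts was not tested. Syt1, the general release sensor of forebrain neurons, had 1172, 1434 and 1454 CPM in Tlr7-/- and 1206, 1176 and 1187 CPM in WT libraries. By TPM, Syt2 amounted to 0.155% of Syt1 in Tlr7-/- replicate 1, 1.26% in replicates 2 and 3, and 0.929% in WT.

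Kcnc2, a subunit of the rapidly deactivating potassium channels that permit fast firing (ENSMUSG00000035681, chromosome 10, 112271121 to 112467024, plus strand), had 27.0, 78.8 and 81.0 CPM in Tlr7-/- replicates 1 to 3 and 61.4, 61.7 and 61.6 CPM in WT replicates. Replicate 1 was at 0.439 times and replicates 2 and 3 at 1.30 times the WT level. These opposite departures cancelled in the mean, which was 62.3 ± 30.6 CPM in Tlr7-/- and 61.6 ± 0.141 CPM in WT neurons (SD, n = 3 each; log2 fold change 0.02 ± 0.37, SE; edgeR adjusted p = 0.979). Kcnc1, the related subunit that predominates in fast-spiking cells (chromosome 7, 46396497 to 46438704, plus strand), had 86.0, 102 and 122 CPM in Tlr7-/- and 88.3, 86.3 and 99.7 CPM in WT libraries. As for Kcnc2, replicate 1 was lowest and replicates 2 and 3 highest, but replicate 1 lay just under the lowest WT library, and the log2 fold change was 0.17 ± 0.13 (SE; edgeR adjusted p = 0.406). Kcnc4, a related subunit, had 68.0, 59.2 and 61.9 CPM in Tlr7-/- and 62.5, 64.4 and 71.5 CPM in WT libraries. Its coefficient of variation over the Tlr7-/- libraries was 7.21%, against 17.3% for Kcnc1 and 49.1% for Kcnc2, and it stood at -0.07 ± 0.09 on the log2 scale (SE; edgeR adjusted p = 0.621).

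Erbb4, the neuregulin receptor of these interneurons (ENSMUSG00000062209, chromosome 1, 68032186 to 69108059, minus strand), had 86.1, 143 and 142 CPM in Tlr7-/- replicates 1 to 3 and 90.1, 89.5 and 91.4 CPM in WT replicates. Replicates 2 and 3 were 1.58 times the WT level, and replicate 1 was 0.953 times that level. The log2 fold change was 0.45 ± 0.19 (SE; edgeR adjusted p = 0.171). Erbb4 has the longest transcript of the set, 12037 bases, with the lowest GC content, 40.6%, and after a correction for GC content and transcript length in each library its value was -0.13 ± 0.07 (SE; edgeR adjusted p = 0.339).

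**Figure D2:**
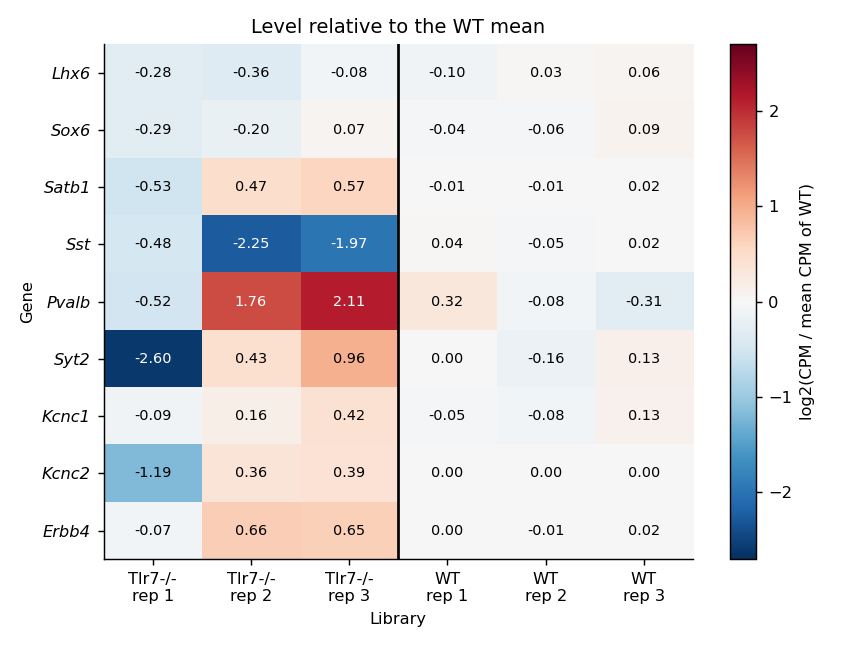
Level of each gene (rows) in each library (columns, Tlr7-/- left of WT) as log2 of its CPM over the WT mean, on a colour scale from blue (lower) to red (higher). Tlr7-/- replicate 1 is below 0 for all 9 genes, down to -2.60 for Syt2, while replicates 2 and 3 run from -2.25 for Sst to 2.11 for Pvalb.

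With all 6 libraries, 0 of the 9 genes passed edgeR's quasi-likelihood test at an adjusted p of 0.05, as did 0% of the 13947 genes tested, to which all 9 belonged. Each of the 9 had at least 16 counts in every library. Sst on the lower side and Pvalb and Erbb4 on the higher side had an unadjusted p under 0.05, shares to be read beside 12.6% and 15.6% of all genes tested. DESeq2's Wald test called none of the 9, against 7.82% of genes higher and 4.75% lower, and limma-voom called 0 genes in all. By CPM, Tlr7-/- replicate 1 lay below all WT libraries for all 9 genes, which held for 32.2% of genes tested, and above them for none (32.0%). For Kcnc1 this rests on 86.0 against 86.3 CPM, and by TPM replicate 1 (26.6) lay above WT replicate 2 (26.1). Replicates 2 and 3 lay above the other 4 libraries for 6 genes (29.9%) and below them for Sst (30.4%). For the 6 genes Satb1, Pvalb, Syt2, Kcnc1, Kcnc2 and Erbb4, replicate 1 was below and replicates 2 and 3 were above WT, as for 6.42% of genes tested, and the reverse held for 0 of the 9, against 7.07%. Since the choice of genes rested on such differences, nothing is read from these counts.

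Counts of calls with other choices of Tlr7-/- libraries describe those libraries and are no test of the set, because the genes were chosen for differences among these very libraries. Without Tlr7-/- replicate 1, edgeR called 49.1% of all genes, 24.3% higher and 24.7% lower, and 7 of the 9 were among them, Sst lower and the others, without Lhx6 and Sox6, higher. With replicates 2 and 3 omitted, the Tlr7-/- side is 1 library, the spread comes from the WT libraries alone, and that library is assumed to vary as they do. That fit called 2.24% of all genes, 1.24% higher and 0.992% lower, and Satb1, Sst, Syt2 and Kcnc2 were among the lower ones. The naming style as a covariate likewise leaves replicate 1 alone against WT for the genotype term, and called 1.43% of all genes, 0.889% higher and 0.545% lower, with Satb1, Syt2 and Kcnc2 among the lower ones. Nothing is read from these counts.

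The spread over the Tlr7-/- libraries, on which the choice of genes rested, ran over a wide range. The coefficient of variation over the Tlr7-/- libraries was 10.1% for Lhx6, 13.4% for Sox6 and 17.3% for Kcnc1. It was 26.3% for Erbb4, 36.4% for Satb1 and 49.1% for Kcnc2, and reached 67.1% for Pvalb, 71.4% for Sst and 78.8% for Syt2. Over the WT libraries it was 22.6% for Pvalb, with its few counts, and between 0.229% (Kcnc2) and 10% (Syt2) for the other 8.

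The order of levels per unit of length also differed between libraries. In Tlr7-/- replicate 1 the order by TPM was Sst at 856, Lhx6 at 29.6, Kcnc1 at 26.6, Erbb4 at 20.6, Sox6 at 16.6, Satb1 at 14.9, Kcnc2 at 11, Pvalb at 1.77 and Syt2 at 1.10 TPM. In Tlr7-/- replicates 2 and 3 Sst led with 297 TPM, and Kcnc1 (37.2), Erbb4 (36.7), Kcnc2 (35.0), Lhx6 and Satb1 (33.3 each) followed within a narrow band, in which the libraries of Kcnc1 overlapped those of Erbb4, those of Kcnc2 overlapped those of Lhx6, and those of Lhx6 overlapped those of Satb1. Sox6 had 20.9 TPM there, ahead of Syt2 (11.8) and Pvalb (10.5), whose libraries overlapped. In WT Sst stood at 1166 TPM, followed by Lhx6 (35.2), Kcnc1 (27.8), Kcnc2 (24.6), Erbb4 and Satb1 (21.2 each), Sox6 (19.8), Syt2 (6.52) and Pvalb (2.49), and only Erbb4, Satb1 and Sox6 overlapped their next neighbour or the one before.

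Removing the trends with GC content and transcript length from every library moved several values, though none of the 9 passed either way. Sox6 lay further below WT, at -0.43 ± 0.08 (SE; edgeR adjusted p = 0.151), while Sst at -1.0 ± 0.34 (adjusted p = 0.199) and Lhx6 at -0.09 came closer to 0. Satb1 came to -0.02 and Kcnc2 to -0.18, both, like Erbb4, with the sign turned. Pvalb had 1.78 ± 0.64 (SE; edgeR adjusted p = 0.205), Syt2 0.08 and Kcnc1 0.14. In parts of the knockout group, given with no test, the corrected values of Syt2 were -2.66 in replicate 1 and 0.59 in replicates 2 and 3, beside -2.60 and 0.72 as counted. Those of Kcnc2 were -1.22 and 0.15, beside -1.19 and 0.38. In replicates 2 and 3 Satb1 went from 0.52 to 0.19 and Erbb4 from 0.66 to -0.08. Kcnc1 went from 0.29 to 0.27 there, and Pvalb rose from 1.94 to 2.26.

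**Figure D3:**
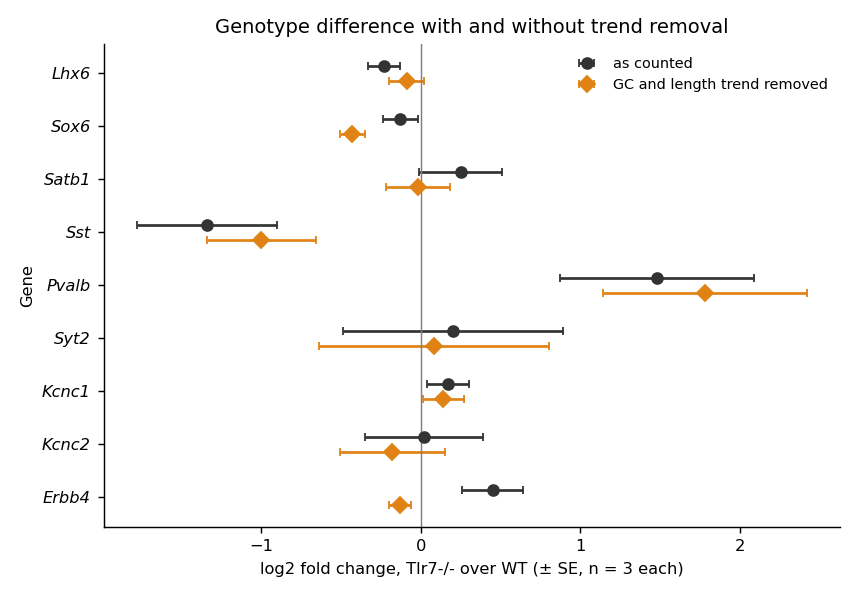
Log2 fold change of Tlr7-/- over WT for each gene with its SE (n = 3 each), as counted (circles) and with the GC and length trend of every library removed (diamonds). Erbb4 crosses 0, with 0.45 as counted and -0.13 after removal, while Sst stays below 0 and Pvalb above it.

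Genes outside the set with the most similar profile were sought by the root mean square difference of centred log2 levels over the 6 libraries, as a description only. The nearest to Satb1 were Akap7, an anchoring protein of protein kinase A (0.0460), Cntn4, a contactin adhesion molecule (0.0463), and Cpne4, a copine (0.0563). Cpne4 had 85.9, 158 and 170 CPM in Tlr7-/- and 112, 116 and 111 CPM in WT libraries. The nearest to Kcnc2 were Flt3, a receptor tyrosine kinase (0.0931), and the genes Hrc (0.147) and Mypn (0.148), known from muscle, all at low levels, such as 1.11, 4.35 and 5.36 CPM of Flt3 in Tlr7-/- and 3.52, 3.34 and 3.38 CPM in WT libraries. The nearest to Syt2 were Xlr3b (0.239), 2210418O10Rik (0.405) and Sytl2, a synaptotagmin-like protein (0.448). Within the set, Lhx6 and Sox6 were the nearest pair (0.0836), followed by Sox6 and Kcnc1 (0.157) and by Satb1 and Erbb4 (0.167), and Sst was farthest from Syt2 and Pvalb (1.69 each).

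Among genes that share the lineage, class or transmitter of these interneurons, 0 members of any list passed edgeR's test. Of 16 tested genes of the GABAergic lineage, 7 had positive and 9 negative fold changes, with a median log2 fold change of -0.14 beside 0.00 for all genes tested, and unadjusted p was under 0.05 for 1 higher and 3 lower genes. Gad1 and Gad2 encode the enzymes that make GABA, and Slc32a1 its vesicular transporter. Gad1 had 565, 612 and 645 CPM in Tlr7-/- and 581, 548 and 541 CPM in WT libraries. Gad2 had 265, 228 and 240 CPM in Tlr7-/- and 199, 204 and 212 CPM in WT libraries, with all Tlr7-/- libraries above WT, as for 16.5% of all genes, and its log2 fold change of 0.25 came to 0.04 after trend removal. Slc32a1 had 128, 75.0 and 88.6 CPM in Tlr7-/- and 150, 143 and 151 CPM in WT libraries, all Tlr7-/- below WT, as for 16.2% of all genes, with a difference of -0.61 ± 0.19 on the log2 scale (SE; edgeR adjusted p = 0.124) that came to -0.11 after trend removal.

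The somatostatin class had 15 tested genes, with 6 positive and 9 negative fold changes and a median of -0.08. The list includes the receptor genes Sstr1 to Sstr4. Replicate 1 was above and replicates 2 and 3 were below WT for 4 of the 15, against 7.07% of all genes, and the opposite held for 0, against 6.42%. The 4 were Npy, Nos1, Sstr1 and Chodl, and Chodl had only 11 to 36 counts. Cort, whose product cortistatin resembles somatostatin and acts on the same receptors, had 10.4, 4.81 and 5.40 CPM in Tlr7-/- and 17.5, 18.3 and 12.7 CPM in WT libraries. Its groups did not overlap, as for Sst and for 32.7% of all genes. The log2 fold change of Cort was -1.23 ± 0.31 (SE; edgeR adjusted p = 0.116), with -0.75 after trend removal. Elfn1, an adhesion protein at the inputs of somatostatin cells, had -0.48 ± 0.12 (adjusted p = 0.116) and -0.31 after trend removal. Reln, a secreted glycoprotein, had 0.47 ± 0.13 (adjusted p = 0.120) and 0.21 after trend removal. The summed level of the list was 580 to 770 TPM in Tlr7-/- and 698 to 748 TPM in WT libraries.

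Of 24 tested fast-spiking genes outside the set, 13 had positive and 11 negative fold changes, and the median of 0.12 split into -0.12 in replicate 1 and 0.16 in replicates 2 and 3. Replicate 1 below and replicates 2 and 3 above WT was found for 4 of the 24, against 6.42% of all genes, and the reverse for 1 of the 24, against 7.07%. The 4 were Kcns3, Lgi2, Esrrg and Syt1, and Syt1 is a general neuronal gene. For Syt1 this rests on 1172 against 1176 CPM, and by TPM replicate 1 (705) lay above WT replicates 2 and 3 (693 and 702). Nefm, a neurofilament subunit, stood at -0.47 ± 0.12 on the log2 scale (SE, edgeR adjusted p = 0.116). Slit2, a guidance ligand, had 0.33 ± 0.10 (adjusted p = 0.123) and Vwc2 had -0.47 ± 0.15 (adjusted p = 0.127). After trend removal Nefm had -0.28, Slit2 -0.02 and Vwc2 -0.56. Of 8 tested perineuronal net genes, whose products form the matrix around fast-spiking cells, 7 had positive values, with a median of 0.21. The negative one was Acan, the core proteoglycan gene, at -0.45 ± 0.94 (SE, edgeR adjusted p = 0.767). It had 0.90 in replicate 1 and -2.63 in replicates 2 and 3. Replicate 1 below and replicates 2 and 3 above WT held for 1 of the 8, and the reverse for 1, against 6.42% and 7.07% of all genes. Hapln1, a link protein of that matrix, had 58.9, 97.0 and 79.9 CPM in Tlr7-/- and 50.9, 49.4 and 47.9 CPM in WT libraries (log2 fold change 0.67 ± 0.17, SE; edgeR adjusted p = 0.116; 0.25 after trend removal). Ptprz1 had 0.46 ± 0.12 (adjusted p = 0.116) and Tnr 0.48 ± 0.21 (adjusted p = 0.188), with 0.15 and 0.09 after trend removal.

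Around Erbb4, 14 genes of neuregulins, ErbB receptors and their partners were tested, with 8 positive and 6 negative fold changes and a median of 0.14. Of the tested ligand genes, Nrg2 (-0.33) and Hbegf (-0.42) were negative, and Nrg1, Nrg3 (0.36) and Nrg4 (0.61) were positive. Nrg1, a ligand of Erbb4, had 15.1, 18.4 and 15.5 CPM in Tlr7-/- and 13.6, 12 and 11.6 CPM in WT libraries. All its Tlr7-/- libraries were higher, as for 16.5% of all genes (log2 fold change 0.40 ± 0.12, SE; edgeR adjusted p = 0.125; 0.14 after trend removal). The sheddases Adam10 and Adam17, which cut neuregulins and Erbb4, had 0.38 ± 0.12 and 0.27 ± 0.09 (adjusted p = 0.125 and 0.134), with 0.15 and 0.13 after trend removal.

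**Figure D4:**
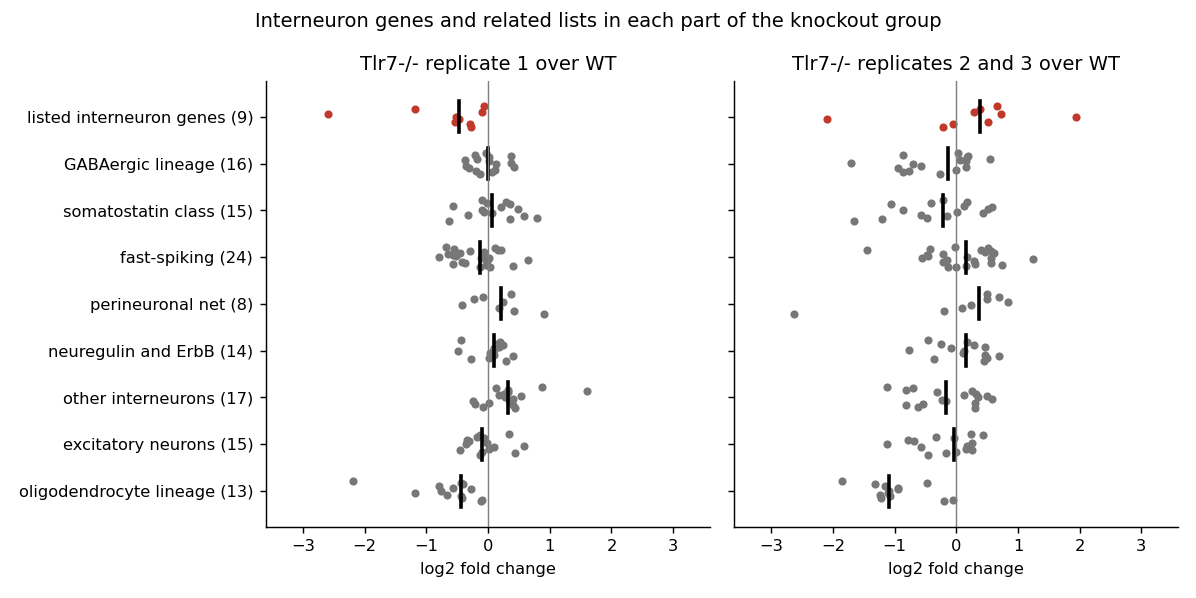
Log2 fold change over WT of each tested gene (points) in the set and in 8 related or neighbouring lists, for Tlr7-/- replicate 1 (left) and replicates 2 and 3 (right); vertical bars are medians, the number of genes stands in brackets, and both panels share the WT libraries. The set has a median of -0.47 in replicate 1 and 0.38 in replicates 2 and 3, or -0.39 and 0.15 after trend removal (not drawn). It was chosen for differences among these libraries, so its medians describe that choice and are no test against the lists. The oligodendrocyte lineage is below 0 in both, with -0.44 and -1.09.

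Markers of other cells gave the setting in which these values stand. The 17 tested genes of other interneuron classes had 8 positive and 9 negative fold changes and a median of -0.01, with 0.32 in replicate 1 and -0.16 in replicates 2 and 3. Replicate 1 was above and replicates 2 and 3 were below WT for 4 of the 17, against 7.07% of all genes, and the opposite held for 0, against 6.42%. The 3 with the smallest p were all positive. Ndnf, a marker of neurogliaform cells, had 44.0, 42.3 and 43.5 CPM in Tlr7-/- and 33, 29.5 and 29.3 CPM in WT libraries (0.50 ± 0.08, SE; edgeR adjusted p = 0.112), with 0.05 after trend removal, and Adarb2, a marker of interneurons from the caudal ganglionic eminence, had 0.52 ± 0.09 (adjusted p = 0.112; 0.29 after trend removal). The cannabinoid receptor gene Cnr1 had 0.30 ± 0.07 (adjusted p = 0.116; 0.08 after trend removal). Excitatory neuron markers summed to 2159 to 2417 TPM in Tlr7-/- and 2241 to 2304 TPM in WT libraries, with 7 positive and 8 negative fold changes and a median of -0.03 over 15 genes. The 3 with the smallest p, all negative, were Nrn1 (-0.54 ± 0.14, adjusted p = 0.116), Fezf2 (-0.62 ± 0.16, adjusted p = 0.116) and Emx1 (-0.82 ± 0.25, adjusted p = 0.124). After trend removal Nrn1 had -0.48, Fezf2 -0.43 and Emx1 0.31. In the oligodendrocyte lineage, 11 of 13 tested genes had all Tlr7-/- libraries below WT, against 16.2% of all genes, with Gpr17 at -1.14, Cnp at -0.81 and Sox10 at -1.02 (edgeR adjusted p = 0.112 each), and -1.14, -0.67 and -0.53 after trend removal. Astrocyte markers summed to 2838 to 3540 TPM in Tlr7-/- and 3248 to 3437 TPM in WT libraries, with 4 positive and 6 negative fold changes and a median of -0.08. The 3 with the smallest p were Aldh1l1 at -0.29, S100b at -0.45 and Aldoc at -0.22 (edgeR adjusted p = 0.116 to 0.167). After trend removal Aldh1l1 had -0.22, S100b -0.30 and Aldoc -0.10. Microglial markers summed to 26.4 to 64.0 TPM in Tlr7-/- and 24.6 to 40.9 TPM in WT libraries, with 5 of 9 tested, 4 of them positive and 1 negative. Their median was 0.42, with -0.98 in replicate 1 and 0.95 in replicates 2 and 3. Endothelial markers summed to 1.64 to 1.90 TPM in Tlr7-/- and 1.05 to 1.71 TPM in WT libraries, and Cdh5 was at 0 in all. The part of these cells in the values of the 9 interneuron genes was not tested.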

How the data were processed

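Messenger RNA was measured in 6 libraries, 3 Tlr7-/- and 3 WT, made with a stranded TruSeq kit per the labels' protocols. The submitters' processing notes name bcl2fastq, HISAT2, featureCounts, edgeR and build GRCm38.p6, with no roles given. The deposited gene table holds, per the file headers, total counts (raw, the main measurement here). It also holds RPKM, scaled by the authors for length and depth, and TPM, scaled by the authors to a fixed total in each library. A second deposited table holds the authors' log2 fold changes with their p-value and false discovery rate columns. It carries the name of edgeR, its test and the libraries behind it are not given in the sources used here, and its signs match Tlr7-/- over WT for 92.6% of 13783 shared genes.

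The filter on low counts (filterByExpr, genotype as group) left 13947 of 25814 genes, holding 99.96% of all counts. After TMM scaling, edgeR 4.0.16 was used (robust quasi-likelihood, two-sided glmQLFTest, Benjamini-Hochberg adjustment over all genes tested, threshold 0.05) in R 4.3.3; an adjusted p without a tool named beside it is from this test. A fit with Tlr7-/- replicate 1 and replicates 2 and 3 as separate groups, after the naming style in the labels, gave values with no test. Alternatives used DESeq2 1.42.0, limma 3.58.1 (voom, or RPKM with pseudocounts of 0.1, 0.5 and 1), other scalings and filters, a replicate block, the naming style as a covariate, omitted libraries, and offsets for GC content and length (natural splines with 5 degrees of freedom, longest GENCODE M21 transcript). The omission of 2 libraries together was added after the data were seen. The procedure was tested on simulated data. Centred levels for profile similarity were log2(CPM + 0.5).

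The 9 genes and all lists were chosen with earlier results of these data known. Named genes are the 9, set relatives (Kcnc4, Syt1, Gad1, Gad2, Slc32a1), the 3 genes of each list with the smallest p, and the 3 most similar profiles each for Kcnc2, Syt2 and Satb1; some genes that this rule names are not reported here. Promoter sequences are RefSeq's on GRCm38.p6, found for 9 of 9 genes; the RefSeq start nearest the gene's 5′ end in the deposited table was used. Figures were drawn with matplotlib 3.10.9.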

Additional observations from a re-analysis of the deposited data

How the results depend on the processing

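Lhx6 and Sox6 kept a negative value without passing under all 20 alternatives (-0.32 to -0.09 and -0.44 to -0.06), and Sst stayed negative under all 20, from -2.10 to -0.47. Of all genes, 1 was called with no filter on low counts, 1 with GC and length offsets, 1754 by DESeq2, 200 with the naming style as a covariate, 320 with Tlr7-/- replicates 2 and 3 omitted, and 0 to 6922 when 1 library was left out. Of the 9 genes, 3 were called with the naming style as a covariate, 4 with both replicates omitted, and 0 to 7 when 1 library was left out, the 7 without Tlr7-/- replicate 1; the genes were chosen for these library differences, so such calls are no test of them. The naming style as a covariate leaves replicate 1 as the only knockout library that informs the genotype term, as does omitting replicates 2 and 3, and it turned the sign for Satb1 (-0.53), Pvalb (-0.52), Syt2 (-2.60), Kcnc1 (-0.09), Kcnc2 (-1.19) and Erbb4 (-0.07). Omitting replicates 2 and 3 turned the same 6 (-0.54, -0.52, -2.60, -0.09, -1.19 and -0.07 in that order). GC and length offsets turned Satb1 (-0.02), Kcnc2 (-0.18) and Erbb4 (-0.13). Fits on log values turned Syt2 and Kcnc2: limma-voom gave -0.42 and -0.15, and limma on log2(RPKM + pseudocount) gave -0.37 and -0.19 at 0.1, -0.19 and -0.18 at 0.5, and -0.10 and -0.16 at 1. Leaving out 1 library gave -0.41 to 0.72 for Syt2 and -0.22 to 0.38 for Kcnc2. It gave 0.05 (without Tlr7-/- replicate 3) to 0.52 (without Tlr7-/- replicate 1) for Satb1, 0.04 to 0.29 for Kcnc1 with the same omissions, and -2.10 to -1.03 for Sst, 1.02 to 1.94 for Pvalb and 0.34 to 0.66 for Erbb4. Pvalb came to 0.69 on log2(RPKM + 1). For the sign changes other than by covariate or omission the cause was not tested.

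With the replicate block, 0 of all genes and 0 of the 9 passed, and the signs of Syt2 (-0.22) and Kcnc2 (-0.13) turned; with the block and the offsets together 0 passed, and Satb1 (-0.07), Syt2 (-0.31), Kcnc2 (-0.29) and Erbb4 (-0.13) turned. Deviations from the group means of libraries that share a replicate number correlated by 0.274, -0.0265 and 0.330 across genes. Between libraries of unlike number the correlations ran from -0.335 to 0.0921. Deviations within a group depend on each other, so these values cannot settle whether the numbers pair the libraries. Depth limits Pvalb, at 16 to 96 counts.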

Other observations

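Some genes outside the naming rule were picked after their values were seen. Acan, which encodes aggrecan, the core proteoglycan of perineuronal nets, had 113, 12.1 and 7.45 CPM in Tlr7-/- replicates 1 to 3 and 77.9, 56.6 and 47.2 CPM in WT replicates. It was thus high in replicate 1 and low in replicates 2 and 3, the reverse of Kcnc2 and Syt2, with 0.90 and -2.63 on the log2 scale. Scn1a, the sodium channel subunit on which fast-spiking cells depend, had 44.3, 107 and 108 CPM in Tlr7-/- and 43.2, 42.8 and 50.1 CPM in WT libraries, and had a log2 fold change of 0.53 after trend removal.

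Genes of the long-range somatostatin type, which carries Nos1, Chodl and Npy, were also picked in this way. Nos1, the neuronal nitric oxide synthase, had 133, 73.6 and 84.4 CPM in Tlr7-/- and 90.3, 87.5 and 85.5 CPM in WT libraries. Npy, a neuropeptide, had 52.9, 19 and 16.8 CPM in Tlr7-/- and 41.8, 42.2 and 39.5 CPM in WT libraries. Both were above WT in replicate 1, where Sst was below it.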
